A study of Homo sapiens with 9 samples.

Results

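The genes described here serve protein folding and quality control in the endoplasmic reticulum (ER) of PANC-1 cells, a line from a human pancreatic adenocarcinoma, exposed to TVB-3166. The series title gives this compound as an inhibitor of fatty acid synthase. They are 33 genes listed by name for their roles in the pathway, with earlier results of these data known: ER chaperones and folding enzymes, the sensors and factors of the unfolded protein response (UPR), the ER-associated degradation (ERAD) machinery and subunits of the translocon. Of the 33, 32 have at least 1 probe set of their own among the 19775 genes so represented on the array, and all 32 passed the filter on low signal. SYVN1, the ERAD ubiquitin ligase, has only a probe set shared with another gene and was not analysed here. The 32 genes are represented by 83 probe sets of their own, of which 79 passed the filter. Probe sets that HSP90B1 shares with another gene were also left out.

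PANC-1 cells were held for 72 hours in medium with charcoal-filtered serum and DMSO vehicle, 0.1 µM TVB-3166 or 1.0 µM TVB-3166. The source names of the DMSO samples give 0.05% DMSO, while other labels state the vehicle content differently. Each of the 3 groups has 3 Affymetrix HG-U133 Plus 2.0 arrays of total RNA, and their number limits the precision. Groups follow the sample titles, which some labels contradict: the 1.0 µM samples carry 0.1 µM in their treatment field, and 0.1 µM replicate 1 is described as DMSO. All groups are 1 cell line, and the labels do not say whether replicates were separate cultures, so p-values may measure technical spread. In RNA from a whole culture, fewer cells of a type and less RNA per cell cannot be told apart.

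Arrays of a group correlated at 0.9806 to 0.9899 (Pearson's r of log2 values), and every array had the same trimmed mean signal of 499.9. The spiked-in labelling controls split the arrays into 4 with higher and 5 with lower spike signal, a division that each group spans unequally. DMSO and 1.0 µM each had 1 array on the higher and 2 on the lower side, and 0.1 µM had 2 and 1. All 6 epithelial markers were above the filter, with summed signals of 54365 to 75162 with DMSO, 46999 to 65717 at 0.1 µM and 37155 to 52205 at 1.0 µM. At 1.0 µM KRT7 was called higher and KRT8 and KRT19 lower, and at 0.1 µM KRT7 was called higher and CDH1 lower. Of the markers of other cells with a probe set, 1 of 7 acinar and endocrine, 3 of 5 blood, 1 of 3 endothelial and 2 of 4 fibroblast markers passed the filter, and of these COL3A1 alone was called, lower at both concentrations. Summed fibroblast marker signal was 401.2 to 501.8 with DMSO, 310.8 to 380.0 at 0.1 µM and 209.0 to 282.3 at 1.0 µM; no marker was at 0. The part of these shifts in the results was not tested.

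Proteins that enter the ER through the SEC61 translocon fold there with the help of BiP (HSPA5), GRP94 (HSP90B1), the lectins calnexin and calreticulin and the protein disulfide isomerases. When unfolded protein builds up, BiP leaves the sensors IRE1 (ERN1), PERK (EIF2AK3) and ATF6. IRE1 then splices the mRNA of the transcription factor XBP1, PERK phosphorylates the translation factor eIF2α and so favours translation of ATF4, and ATF6 is cut in the Golgi to free a transcription factor. ATF6 and spliced XBP1 act on ER stress response elements in the promoters of chaperone genes, and proteins that fail to fold are extracted and degraded by ERAD. Membrane lipid composition is also known to act on IRE1 and PERK. The arrays measure total mRNA of these genes and give no measure of XBP1 splicing, of phosphorylation or of ATF6 cleavage.

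The genes did not move in 1 direction. At 1.0 µM TVB-3166, 9 of the 32 tested genes rose and 6 fell, where a gene is called at an adjusted p under 0.05 in limma's moderated test, with the Benjamini-Hochberg adjustment made over the 13948 genes tested. Over all tested genes, 12.3% were called higher and 11% lower, 23.2% in either direction, against 46.9% of the listed genes, a share that describes the list and is no independent support, given how it was chosen. The sensors ERN1 and EIF2AK3, the factor XBP1, BiP (HSPA5), GRP170 (HYOU1), the co-chaperone DNAJB9 and the ERAD genes HERPUD1, SEL1L and DERL1 rose. GRP94 (HSP90B1), calreticulin (CALR), the disulfide isomerases PDIA3 and PDIA4, CRELD2 and EDEM1 fell. All 3 arrays at 1.0 µM lay above all 3 DMSO arrays in 10 of the 32 genes and below them in 9, against 19.2% and 18% of all tested genes. The median log2 change was -0.019 over the listed genes and 0.006 over all tested genes.

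At 0.1 µM TVB-3166, 6 genes rose and 6 fell, 37.5% of the 32. Over all tested genes, 6.89% were called higher and 5.11% lower, 12% in either direction. ERN1, XBP1, EIF2AK3, DNAJB9, HERPUD1 and SEL1L rose, and CALR, HSP90B1, PDIA3, PDIA4, CRELD2 and SDF2L1 fell. All 3 arrays at 0.1 µM lay above the DMSO arrays in 6 genes and below them in 10, against 15.5% and 14.6% of all tested genes. The median log2 change was -0.046 over the listed genes and -0.006 over all tested genes. The comparisons of the 2 concentrations share the DMSO arrays, so their values stand side by side below and are not independent of each other.

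**Figure D1:**
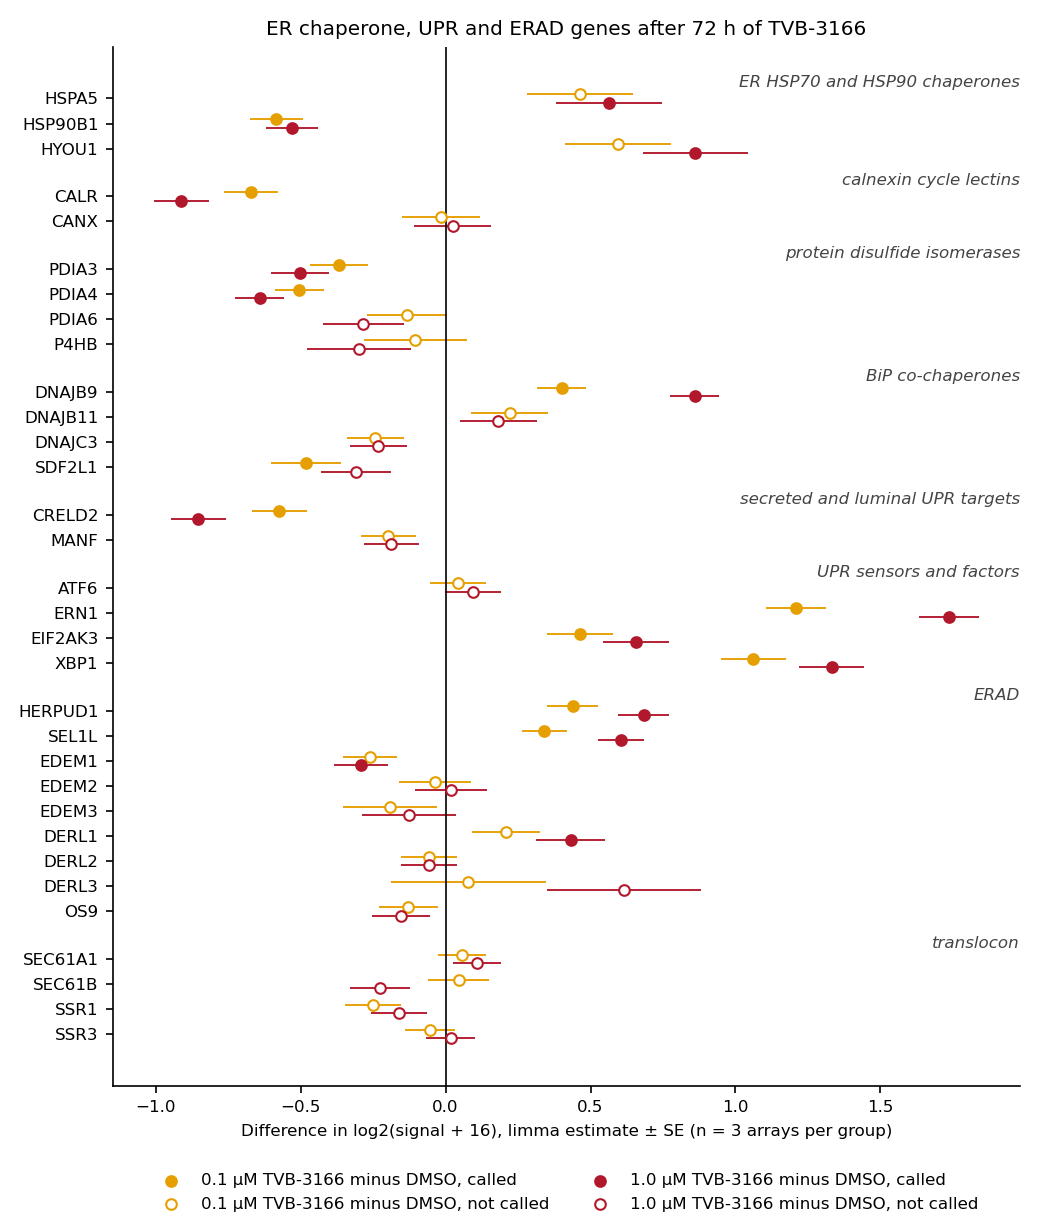
Log2 change of each of the 32 genes against DMSO (x axis), at 1.0 µM and 0.1 µM TVB-3166, grouped by role; error bars are limma standard errors and filled points are called. The sensors and factors lie at or right of 0, with ERN1 at 1.74 at 1.0 µM, while the disulfide isomerases lie left of it.

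Promoter sequence was set beside these directions because ATF6 and spliced XBP1 act through known DNA elements. RefSeq windows (GRCh38.p14) from 250 bases before to 50 after a transcription start were available for 30 of the 33 genes, 39 windows in all. They were searched on both strands for the ER stress response element ERSE (CCAAT and CCACG with any 9 bases between), ERSE-II (ATTGG and CCACG with any 1 base between), the core of the UPR element UPRE (TGACGTGG) and the core of the amino acid response element CARE (TGATGNAA). ERSE was found in 0.0769% of all 35116 windows, ERSE-II in 0.0541%, the UPRE core in 0.729% and the CARE core in 3.62%.

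ERSE or ERSE-II was found in 10 of the 30 genes with a window and in 12 of their 39 windows, against 0.161% of all 27305 genes with a window and 0.131% of all windows. The genes were listed as parts of this pathway, and some are textbook targets of these elements. Of these 10, 4 were called higher at 1.0 µM (HSPA5 and XBP1 with ERSE, HERPUD1 and HYOU1 with ERSE-II), 3 were called lower (HSP90B1 with 2 copies of ERSE, CALR and CRELD2) and 3 were not called (CANX, PDIA6 and SDF2L1). Genes holding the same element thus stood on both sides of 0. The 250 bases before the start of the 7 called genes are shown because these are the genes where element and direction can be compared; capitals mark the matches to the searched elements.
HSPA5 (chr9:125241344-125241593, minus strand): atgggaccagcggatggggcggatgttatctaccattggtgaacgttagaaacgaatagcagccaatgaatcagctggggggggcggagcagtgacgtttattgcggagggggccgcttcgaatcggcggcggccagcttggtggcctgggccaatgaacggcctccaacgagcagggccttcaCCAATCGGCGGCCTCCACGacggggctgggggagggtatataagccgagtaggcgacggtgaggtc
XBP1 (chr22:28800570-28800819, minus strand): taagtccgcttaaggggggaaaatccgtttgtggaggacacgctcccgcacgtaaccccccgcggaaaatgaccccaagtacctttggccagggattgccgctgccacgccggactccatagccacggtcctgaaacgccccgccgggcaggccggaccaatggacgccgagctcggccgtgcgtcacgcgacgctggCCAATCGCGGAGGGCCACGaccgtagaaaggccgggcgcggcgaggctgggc
HERPUD1 (chr16:56931892-56932141, plus strand): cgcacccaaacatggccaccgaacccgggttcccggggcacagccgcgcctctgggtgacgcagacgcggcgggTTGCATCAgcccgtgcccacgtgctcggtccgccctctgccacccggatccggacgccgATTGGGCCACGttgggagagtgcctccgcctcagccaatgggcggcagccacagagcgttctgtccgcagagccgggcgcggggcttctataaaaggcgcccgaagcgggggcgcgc
HYOU1 (chr11:119057206-119057455, minus strand): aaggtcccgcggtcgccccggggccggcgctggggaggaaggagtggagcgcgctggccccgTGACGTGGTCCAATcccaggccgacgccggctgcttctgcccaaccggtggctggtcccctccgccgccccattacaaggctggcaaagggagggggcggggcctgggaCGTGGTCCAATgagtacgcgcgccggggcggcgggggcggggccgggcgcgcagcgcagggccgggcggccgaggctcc
HSP90B1 (chr12:103930160-103930409, plus strand): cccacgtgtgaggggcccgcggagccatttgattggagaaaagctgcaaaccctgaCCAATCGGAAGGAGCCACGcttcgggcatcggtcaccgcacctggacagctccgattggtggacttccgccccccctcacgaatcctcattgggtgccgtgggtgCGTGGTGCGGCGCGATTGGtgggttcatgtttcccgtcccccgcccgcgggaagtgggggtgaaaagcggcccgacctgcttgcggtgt
CALR (chr19:12938359-12938608, plus strand): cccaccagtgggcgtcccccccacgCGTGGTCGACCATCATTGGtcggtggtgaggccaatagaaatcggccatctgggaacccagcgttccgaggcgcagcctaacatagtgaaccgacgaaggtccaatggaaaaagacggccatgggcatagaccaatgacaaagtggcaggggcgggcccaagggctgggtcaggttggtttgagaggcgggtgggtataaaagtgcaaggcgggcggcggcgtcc
CRELD2 (chr22:49918384-49918633, plus strand): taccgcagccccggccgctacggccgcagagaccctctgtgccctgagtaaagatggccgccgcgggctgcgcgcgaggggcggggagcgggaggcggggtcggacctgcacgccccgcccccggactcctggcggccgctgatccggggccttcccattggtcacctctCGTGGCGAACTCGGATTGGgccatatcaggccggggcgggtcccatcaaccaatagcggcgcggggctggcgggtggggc

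Counted from the start base as position 0, the element of HSPA5 began at -66, that of XBP1 at -52 and that of CRELD2 at -80. The element of CALR began at -225. In HSP90B1 the copies began at -194 and -89, on opposite strands. HYOU1 held ERSE-II at -185 and again at -79, and its UPRE core at -188 overlaps the first of these. HERPUD1 held ERSE-II at -117 and a CARE core at -176. ERN1, EIF2AK3, DNAJB9, SEL1L, PDIA4 and EDEM1, all called, have windows in which none of the 4 elements was found, which says only that these letters are not in those windows. A match is a description of the sequence and not evidence that a factor binds there.

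**Figure D2:**
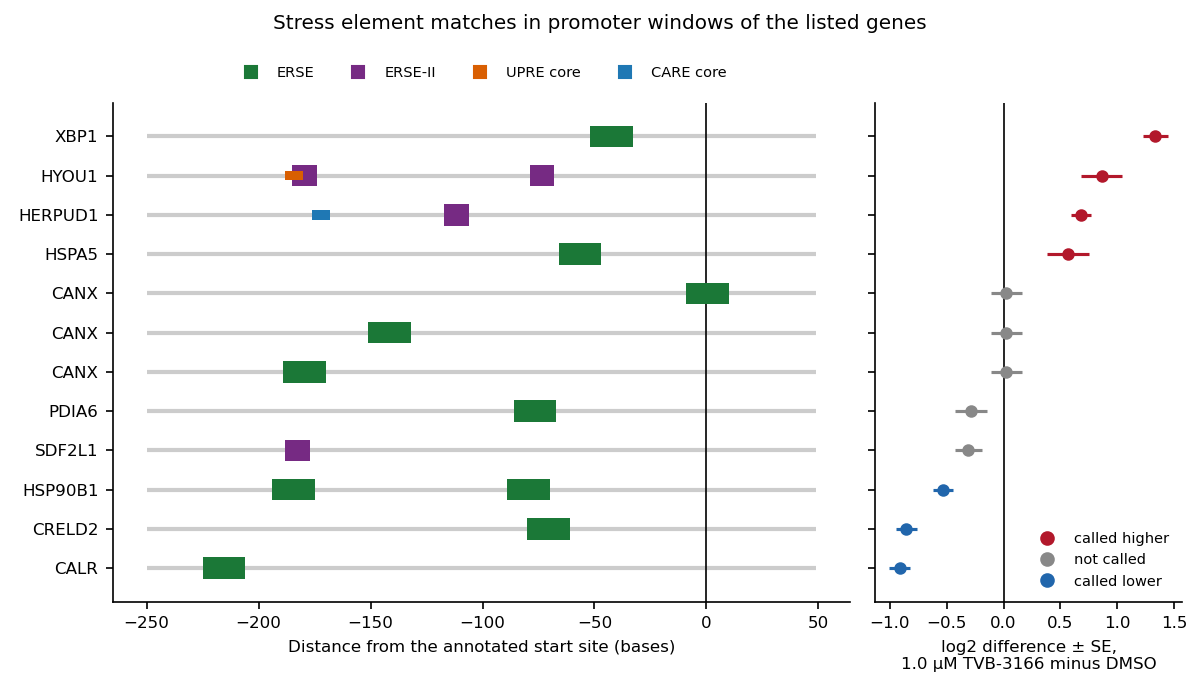
Position of each ERSE, ERSE-II, UPRE core and CARE core match relative to the transcription start (x axis, bases) for the listed genes with ERSE or ERSE-II, 1 row per window that holds one; the right panel gives each gene's log2 difference ± SE, 1.0 µM minus DMSO. Rows called higher, lower and not called all hold ERSE or ERSE-II, from -225 to the start itself.

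Among the sensors and factors, 3 of 4 rose at both concentrations. Of all tested genes, 12.3% were called higher at 1.0 µM and 6.89% at 0.1 µM. ERN1 encodes IRE1α, the kinase and ribonuclease that splices XBP1 mRNA. Its MAS5 signal, the array software's weighted average of probe brightness after mismatch correction, on a linear scale, was 422.3, 469.3 and 485.9 with DMSO, 1004, 1064 and 1182 at 0.1 µM and 1580, 1667 and 1453 at 1.0 µM. Every array at 1.0 µM exceeded every array at 0.1 µM, and these exceeded every DMSO array. Its log2 change against DMSO was 1.74 ± 0.10 (adjusted p = 5.56e-07) at 1.0 µM, a fold of 3.33, and 1.21 ± 0.10 (adjusted p = 1.77e-05) at 0.1 µM. All changes are on the log2(signal + 16) scale with limma standard errors. The other 2 probe sets of ERN1 were not called, at 0.17 and 0.35, so the rise at 1.0 µM rests on 1 of 3. These 2 were dim, with signals of 90.1 to 167.3 and 77.7 to 133.4 over all arrays. With the probe sets averaged the change was 0.75 (adjusted p = 0.00175) at 1.0 µM and 0.47 (adjusted p = 0.0386) at 0.1 µM. XBP1, the target of that splicing, had signals of 1247, 1264 and 1048 with DMSO, 2237, 2472 and 2767 at 0.1 µM and 3096, 2718 and 3210 at 1.0 µM. No treated array overlapped a DMSO array. It rose by 1.33 ± 0.11 (adjusted p = 6.03e-06) at 1.0 µM and by 1.06 ± 0.11 (adjusted p = 7.92e-05) at 0.1 µM. Its second probe set was not called, at 0.17 at 1.0 µM. That probe set was dim, with signals of 7.6 to 77.8, near the filter signal of 38.95. Averaging both probe sets gave 0.75 (adjusted p = 0.0306) at 1.0 µM and 0.48 (adjusted p = 0.202), no longer called, at 0.1 µM. EIF2AK3, which encodes PERK, had 1083, 952.3 and 889.2 with DMSO, 1240, 1458 and 1347 at 0.1 µM and 1720, 1380 and 1544 at 1.0 µM. All treated arrays were above all DMSO arrays, while the 2 concentrations overlapped. Its change was 0.66 ± 0.11 (adjusted p = 0.00126) at 1.0 µM and 0.46 ± 0.11 (adjusted p = 0.0194) at 0.1 µM, and the call at 0.1 µM was lost without DMSO replicate 2 (0.0583), DMSO replicate 3 (0.0624), 0.1 µM replicate 2 (0.0627) or 0.1 µM replicate 3 (0.075) (adjusted p in brackets).

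ATF6, the Golgi-cleaved sensor, was not called, with 0.09 ± 0.10 (adjusted p = 0.548) at 1.0 µM and 0.04 ± 0.10 (adjusted p = 0.842) at 0.1 µM for its brightest probe set. Another of its 4 probe sets was called higher at 1.0 µM, by 0.61 ± 0.17 (adjusted p = 0.0256). The groups of the brightest probe set overlapped, with signals of 1692, 1546 and 1452 with DMSO, 1517, 1746 and 1566 at 0.1 µM and 1719, 1728 and 1559 at 1.0 µM.

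The 3 large lumenal chaperones split. HSPA5 encodes BiP, the HSP70 chaperone of the ER lumen, and its signals were 13555, 16312 and 14215 with DMSO, 23012, 15478 and 23151 at 0.1 µM and 18467, 26984 and 20405 at 1.0 µM. The 1.0 µM arrays were all above the DMSO arrays, and 1 of the 0.1 µM arrays lay within the DMSO range. The change was 0.56 ± 0.18 (adjusted p = 0.0421) at 1.0 µM and 0.46 ± 0.18 (adjusted p = 0.128), not called, at 0.1 µM. The call at 1.0 µM sits near the threshold: it was lost in 10 of 22 alternatives, among them without DMSO replicate 1 (0.129), DMSO replicate 2 (0.055), DMSO replicate 3 (0.116), 0.1 µM replicate 3 (0.0519), 1.0 µM replicate 2 (0.116) or 1.0 µM replicate 3 (0.0794) (adjusted p in brackets). At 0.1 µM a call appeared without 0.1 µM replicate 2 (0.0225). In each group the arrays with the highest HSPA5 were those with higher spike signal. With spike side as a covariate the change was 0.56 (adjusted p = 0.000237) at 1.0 µM and 0.32 (adjusted p = 0.0188) at 0.1 µM. On the lower-spike arrays alone, 2 at 1.0 µM and 2 with DMSO, the change at 1.0 µM was 0.48. Only 1 of the 0.1 µM arrays lies there, so no such value is given for 0.1 µM. The second HSPA5 probe set rose by 1.56 ± 0.11 (adjusted p = 2.69e-06) at 1.0 µM in the fit over probe sets, where the brighter one was not called (adjusted p = 0.0515). At 0.1 µM the second probe set rose by 0.98 ± 0.11 (adjusted p = 0.000173), without overlap with DMSO. With both probe sets averaged the change was 1.06 (adjusted p = 0.000115) at 1.0 µM and 0.72 (adjusted p = 0.00336) at 0.1 µM, and quantile normalization also gave a call at 0.1 µM (adjusted p = 0.000264).

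HYOU1 encodes GRP170, a nucleotide exchange factor for BiP. Its signals were 2926, 2884 and 4663 with DMSO, 5475, 4475 and 5563 at 0.1 µM and 5571, 7488 and 5697 at 1.0 µM, and the highest DMSO array lay within the 0.1 µM range. HYOU1 changed by 0.86 ± 0.18 (adjusted p = 0.0047) at 1.0 µM and by 0.59 ± 0.18 (adjusted p = 0.0538), not called, at 0.1 µM. On the lower-spike arrays alone, 2 at 1.0 µM and 2 with DMSO, the 1.0 µM change was smaller, at 0.61. At 0.1 µM HYOU1 was called higher without DMSO replicate 3 (0.00584), 0.1 µM replicate 2 (0.0442) or 1.0 µM replicate 2 (0.0322) (adjusted p in brackets). HSP90B1 encodes GRP94, the HSP90 chaperone of the ER, and had 3635, 3700 and 3896 with DMSO, 2474, 2555 and 2446 at 0.1 µM and 2355, 2574 and 2856 at 1.0 µM. All treated arrays were below all DMSO arrays. The fall was -0.53 ± 0.09 (adjusted p = 0.00124) at 1.0 µM and -0.58 ± 0.09 (adjusted p = 0.00124) at 0.1 µM. Both probe sets analysed can also bind related transcripts. Further HSP90B1 probe sets on the array are shared with another gene and were left out, so the fall was not examined on them. At 1.0 µM the second gave 0.01 ± 0.19 (adjusted p = 0.977), and the mean of both gave -0.26 (adjusted p = 0.112), so that call rests on 1 probe set. At 0.1 µM the second gave -0.55 ± 0.19 (adjusted p = 0.104), with all its arrays below DMSO, and the mean of both kept the call at -0.57 (adjusted p = 0.00501).

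**Figure D3:**
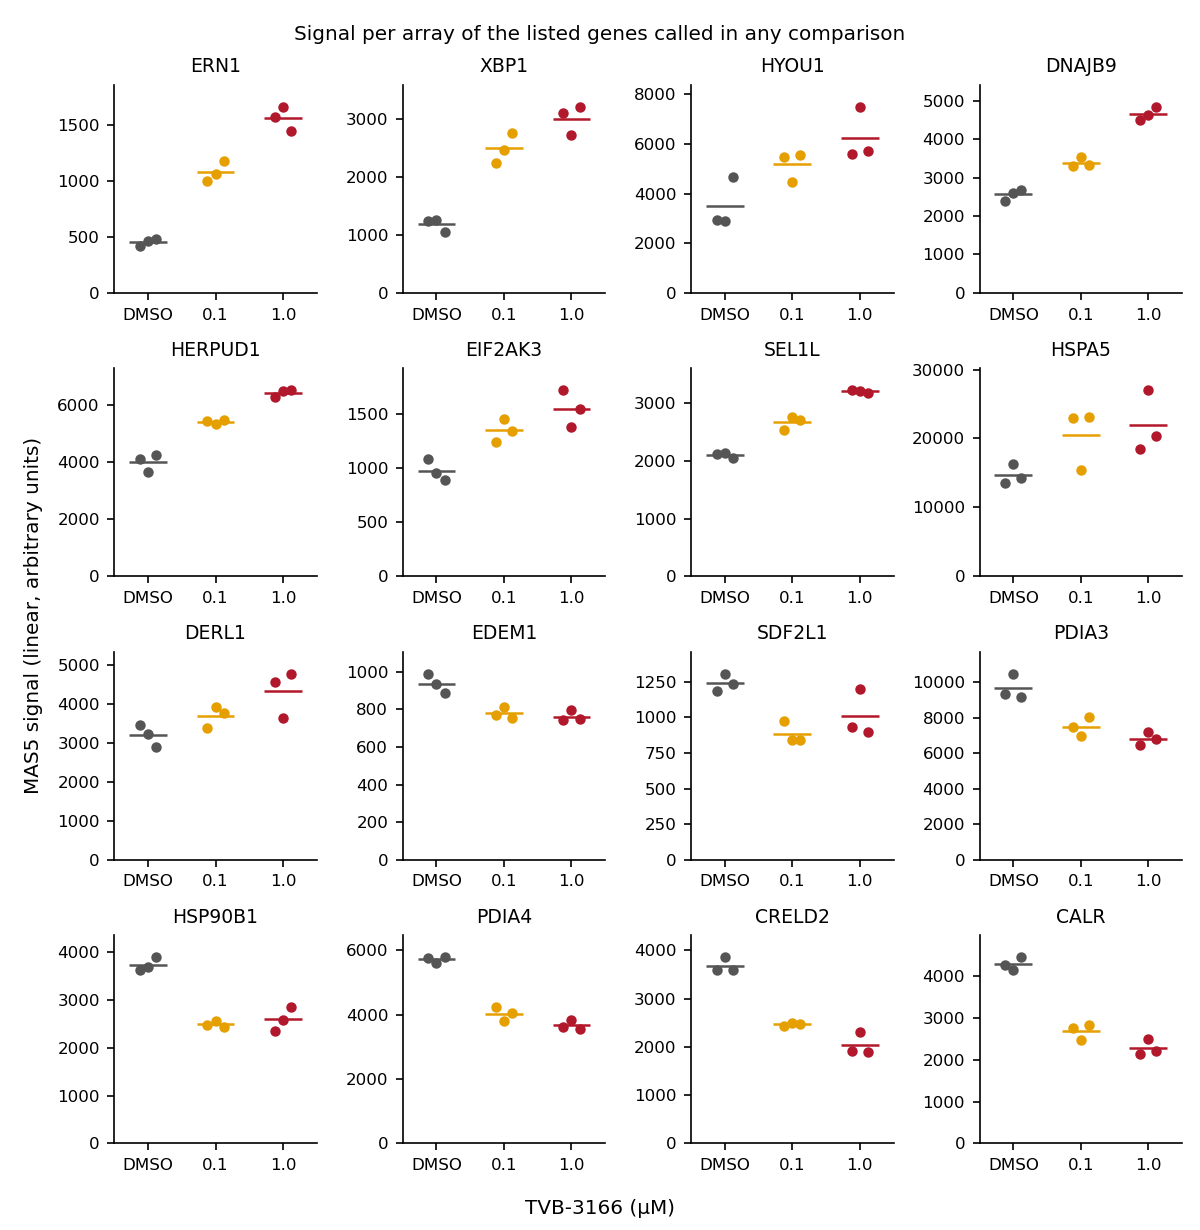
MAS5 signal (y axes, linear from 0) of the genes called in any comparison, with 1 point per array, the mean of each group as a line, and DMSO, 0.1 and 1.0 µM TVB-3166 along the x axis. ERN1, XBP1, DNAJB9, HERPUD1 and SEL1L stand above their DMSO arrays on every treated array, and CALR, PDIA3, PDIA4 and CRELD2 stand below.

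The 2 lectin chaperones of the calnexin cycle, which hold glycoproteins during folding, differed. Calreticulin (CALR), the soluble lectin, which also binds calcium, had signals of 4269, 4131 and 4441 with DMSO, 2764, 2458 and 2833 at 0.1 µM and 2136, 2487 and 2198 at 1.0 µM. No treated array reached the DMSO range. CALR changed by -0.91 ± 0.09 (adjusted p = 2.73e-05) on the log2 scale at 1.0 µM and by -0.67 ± 0.09 (adjusted p = 0.000577) at 0.1 µM, and all 3 of its probe sets were called lower at 1.0 µM. Calnexin (CANX), the membrane-bound lectin, had 9849, 10811 and 11004 with DMSO, 11875, 8980 and 10638 at 0.1 µM and 9491, 12621 and 10286 at 1.0 µM. The groups overlapped, the change was 0.02 ± 0.13 (adjusted p = 0.932) at 1.0 µM, and none of its 5 probe sets was called at either concentration.

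Protein disulfide isomerases form and rearrange disulfide bonds, and 2 of 4 fell at both concentrations. Of all tested genes, 11% were called lower at 1.0 µM and 5.11% at 0.1 µM. PDIA3 (ERp57), which works with calnexin and calreticulin, had 9321, 10463 and 9184 with DMSO, 7497, 6948 and 8017 at 0.1 µM and 6464, 7196 and 6781 at 1.0 µM. Treated and DMSO arrays did not overlap. Its log2 change was -0.50 ± 0.10 (adjusted p = 0.00326) at 1.0 µM, with all 3 probe sets lower, and -0.37 ± 0.10 (adjusted p = 0.0327) at 0.1 µM. The call at 0.1 µM was lost without DMSO replicate 1 (0.072), DMSO replicate 2 (0.116), 0.1 µM replicate 1 (0.0932), 0.1 µM replicate 2 (0.086), 0.1 µM replicate 3 (0.0629) or 1.0 µM replicate 3 (0.0592) (adjusted p in brackets). PDIA4 (ERp72) had 5772, 5604 and 5778 with DMSO, 4250, 3792 and 4049 at 0.1 µM and 3618, 3823 and 3546 at 1.0 µM, and no treated array reached the DMSO range. It changed by -0.64 ± 0.08 (adjusted p = 0.000182) at 1.0 µM and by -0.50 ± 0.08 (adjusted p = 0.00206) at 0.1 µM. With its 2 probe sets averaged the change at 1.0 µM was -0.43 (adjusted p = 0.0021). PDIA6 and P4HB, P4HB being also a subunit of collagen prolyl 4-hydroxylase, were not called, at -0.28 ± 0.14 (adjusted p = 0.172) and -0.30 ± 0.18 (adjusted p = 0.267) at 1.0 µM. Their ranges overlapped between groups, and 1 of 4 PDIA6 and 1 of 3 P4HB probe sets was called lower at 1.0 µM.

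Of the 4 co-chaperones and partners of BiP, 1 rose at 1.0 µM, where 12.3% of all tested genes were called higher. DNAJB9 (ERdj4), a J-domain protein known to recruit BiP to IRE1 and hold it inactive, had 2394, 2604 and 2686 with DMSO, 3299, 3526 and 3325 at 0.1 µM and 4493, 4627 and 4841 at 1.0 µM. The 3 groups did not overlap and stood in the order of concentration. Its change was 0.86 ± 0.09 (adjusted p = 1.97e-05) at 1.0 µM, a fold of 1.81, and 0.40 ± 0.09 (adjusted p = 0.00909) at 0.1 µM, and all 3 probe sets were called higher at 1.0 µM. SDF2L1, a partner of the co-chaperone DNAJB11, had 1182, 1305 and 1237 with DMSO, 976.9, 840.7 and 841.8 at 0.1 µM and 929.5, 1197 and 894.2 at 1.0 µM. All 0.1 µM arrays were below all DMSO arrays, and 1 of the 1.0 µM arrays lay within the DMSO range. SDF2L1 changed by -0.48 ± 0.12 (adjusted p = 0.0221) at 0.1 µM and by -0.31 ± 0.12 (adjusted p = 0.0864), not called, at 1.0 µM. The 0.1 µM call was lost without DMSO replicate 2 (0.0749), DMSO replicate 3 (0.0534), 0.1 µM replicate 2 (0.0627) or 0.1 µM replicate 3 (0.0996), and a call at 1.0 µM appeared without 1.0 µM replicate 2 (0.0111) (adjusted p in brackets). DNAJB11 (ERdj3) and DNAJC3 (p58IPK), which hands substrates to BiP, were not called, at 0.18 ± 0.13 and -0.23 ± 0.10 at 1.0 µM. For DNAJC3 all treated arrays were nevertheless below all DMSO arrays.

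CRELD2, an ER-resident protein known as a UPR target, had signals of 3585, 3856 and 3590 with DMSO, 2423, 2495 and 2476 at 0.1 µM and 1921, 2302 and 1884 at 1.0 µM. The 3 groups did not overlap, with the lowest signals at 1.0 µM. Between the concentrations CRELD2 changed by -0.28 ± 0.09 (adjusted p = 0.247), not called. Its log2 change was -0.85 ± 0.09 (adjusted p = 4.77e-05) at 1.0 µM, a fold of 0.554, and -0.57 ± 0.09 (adjusted p = 0.00182) at 0.1 µM. MANF, a small ER protein and secreted factor, was not called, at -0.19 ± 0.10 (adjusted p = 0.187) at 1.0 µM and -0.20 ± 0.10 (adjusted p = 0.218) at 0.1 µM, though all treated arrays were below all DMSO arrays.

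ERAD was represented by 9 tested genes, of which 3 rose and 1 fell at 1.0 µM, against 12.3% and 11% of all tested genes. HERPUD1, a membrane adaptor of the degradation complex, had 4090, 3639 and 4248 with DMSO, 5441, 5307 and 5460 at 0.1 µM and 6265, 6462 and 6496 at 1.0 µM. The groups did not overlap and followed the concentration. Between the concentrations HERPUD1 changed by 0.245 ± 0.09 (adjusted p = 0.279), not called. Its change was 0.68 ± 0.09 (adjusted p = 0.000158) at 1.0 µM and 0.44 ± 0.09 (adjusted p = 0.00688) at 0.1 µM. SEL1L, the partner of the SYVN1 ligase, had 2131, 2138 and 2050 with DMSO, 2534, 2764 and 2722 at 0.1 µM and 3228, 3218 and 3188 at 1.0 µM, again without overlap. Between the concentrations SEL1L changed by 0.26 ± 0.08 (adjusted p = 0.179), not called. Its change was 0.60 ± 0.08 (adjusted p = 0.000177) at 1.0 µM and 0.34 ± 0.08 (adjusted p = 0.0153) at 0.1 µM, and the 0.1 µM call was lost without 0.1 µM replicate 3 (0.0762) (adjusted p in brackets). The 0.1 µM call was also lost with its 4 probe sets averaged, at 0.12 (adjusted p = 0.48), under median centring (adjusted p = 0.062) and with a replicate block (adjusted p = 0.0562). At 1.0 µM 2 of the 4 were called higher, and averaging all 4 gave 0.41 (adjusted p = 0.0107). The dimmest of the 4 had signals of 47.5 to 108.1.

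DERL1, a derlin of the retrotranslocation channel, had 3453, 3233 and 2882 with DMSO, 3379, 3905 and 3770 at 0.1 µM and 4566, 3640 and 4766 at 1.0 µM. All 1.0 µM arrays were above all DMSO arrays, while the 0.1 µM and DMSO arrays overlapped. It changed by 0.43 ± 0.12 (adjusted p = 0.0197) at 1.0 µM and by 0.21 ± 0.12 (adjusted p = 0.304), not called, at 0.1 µM. The call at 1.0 µM was lost without DMSO replicate 3 (0.0721), 1.0 µM replicate 1 (0.0725) or 1.0 µM replicate 3 (0.0912) (adjusted p in brackets). At 0.1 µM another DERL1 probe set was called higher, by 0.38 ± 0.10 (adjusted p = 0.0278), without overlap with DMSO. EDEM1, which trims mannose from misfolded glycoproteins, had 988.7, 932.8 and 889.5 with DMSO, 769.3, 813.3 and 753.5 at 0.1 µM and 743.1, 794.6 and 746.7 at 1.0 µM. Treated and DMSO arrays did not overlap, and the change was -0.29 ± 0.09 (adjusted p = 0.0386) at 1.0 µM and -0.26 ± 0.09 (adjusted p = 0.0935), not called, at 0.1 µM. The 1.0 µM call was lost in 11 of 22 alternatives, including without DMSO replicate 1 (0.123), DMSO replicate 2 (0.0851), 0.1 µM replicate 1 (0.0585), 0.1 µM replicate 3 (0.0568), 1.0 µM replicate 1 (0.116) or 1.0 µM replicate 3 (0.12). Its relatives EDEM2 and EDEM3, the derlins DERL2 and DERL3 and the lectin OS9 were not called at either concentration, with changes of -0.15 to 0.62 at 1.0 µM. The highest of these, DERL3 at 0.62 ± 0.27 (adjusted p = 0.12), had signals of 47, 111.3 and 62.9 with DMSO, 85.6, 76 and 63.7 at 0.1 µM and 129.0, 108.6 and 110.2 at 1.0 µM. The DMSO arrays overlapped both treated groups, while all 1.0 µM arrays lay above all 0.1 µM arrays.

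No translocon subunit was called on its brightest probe set. The channel subunits SEC61A1 and SEC61B changed by 0.11 ± 0.08 and -0.23 ± 0.10 at 1.0 µM. The translocon-associated subunits SSR1 and SSR3 changed by -0.16 ± 0.10 and 0.02 ± 0.09. On these brightest probe sets all treated SSR1 arrays were below all DMSO arrays, and all 1.0 µM SEC61A1 arrays were above them. At 1.0 µM 2 of the 6 SSR1 probe sets were called lower, at -0.72 and -0.52. At 0.1 µM 2 of the 6 were called lower, at -0.34 (adjusted p = 0.0449) and -0.56 (adjusted p = 0.0465).

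Over the 79 tested probe sets of these genes, taken one by one, 14 were called higher and 14 lower at 1.0 µM, where 8.94% and 8.68% of all 32768 probe sets were. At 0.1 µM 8 were called higher and 10 lower, against 4.59% and 3.66% of all. CALR, PDIA3 and DNAJB9 had all their probe sets called in 1 direction at 1.0 µM, while HSPA5, HSP90B1, ERN1, XBP1, PDIA4, SEL1L and DERL1 each had at least 1 that was not called. No gene had probe sets called in both directions at either concentration.

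**Figure D4:**
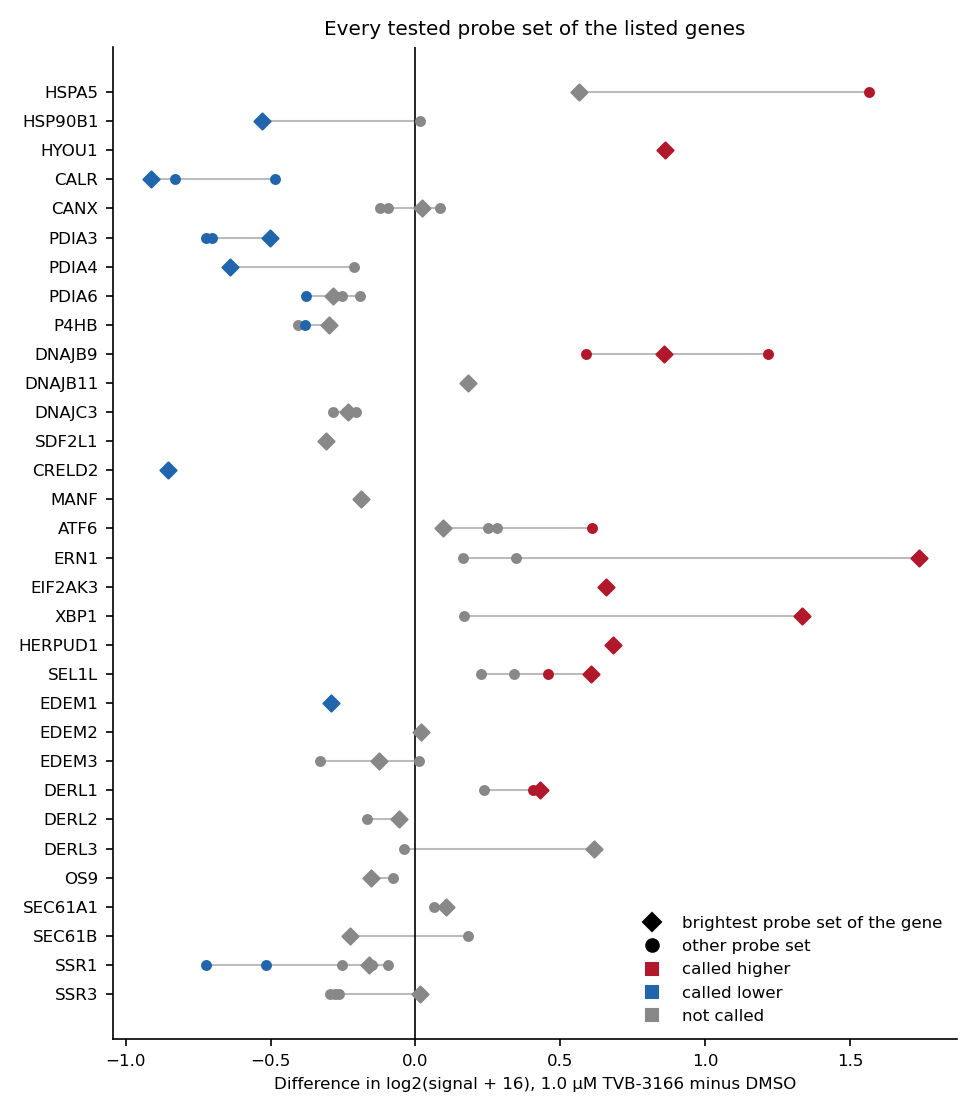
Log2 change at 1.0 µM against DMSO (x axis) of each tested probe set, 1 row per gene. Diamonds are the brightest probe set, circles the others; red is called higher, blue lower and grey not called in the fit over all probe sets. The probe sets of CALR, PDIA3 and DNAJB9 lie together on 1 side of 0, while those of HSP90B1, ERN1 and XBP1 spread from near 0 to -0.53, 1.74 and 1.33.

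The 2 concentrations were compared directly. At 1.0 µM against 0.1 µM, 2 of the 32 genes were called higher and 0 lower, where 0.387% of all tested genes were called higher and 0.43% lower, 0.817% in either direction. DNAJB9 was higher at 1.0 µM by 0.46 ± 0.09 (adjusted p = 0.0313) and ERN1 by 0.53 ± 0.10 (adjusted p = 0.0388), and for each the 2 groups did not overlap. At an unadjusted p under 0.05, limma gave 5 genes higher and 3 lower, against 6.17% and 6.2% of all tested genes. In the limma fit over probe sets 0 of 79 were called, where 0.122% of all were called higher and 0.159% lower, with 10 higher and 4 lower at an unadjusted p under 0.05, against 5.85% and 4.94% of all. The DNAJB9 call was lost without DMSO replicate 2 (0.0536), 0.1 µM replicate 1 (0.18), 0.1 µM replicate 2 (0.0747), 0.1 µM replicate 3 (0.118), 1.0 µM replicate 1 (0.111) or 1.0 µM replicate 3 (0.182), and the ERN1 call without DMSO replicate 2 (0.0577), 0.1 µM replicate 1 (0.223), 0.1 µM replicate 2 (0.11), 0.1 µM replicate 3 (0.0738), 1.0 µM replicate 1 (0.155), 1.0 µM replicate 2 (0.0689) or 1.0 µM replicate 3 (0.126) (adjusted p in brackets). For the other 30 genes the data do not show a difference between the concentrations, and their changes ranged from -0.28 to 0.54.

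Beyond the 33 genes, 6 further lists of ER genes (135 genes, 126 tested) gave 15 genes higher and 20 lower at 1.0 µM, 27.8% against the 23.2% of all tested genes, and 9 higher and 10 lower at 0.1 µM, 15.1% against 12%. Oxidative folding had 2 of 18 higher and 4 lower at 1.0 µM, cycling of BiP and other lumenal folding 2 of 20 higher and 5 lower. Glycan trimming and the oligosaccharyltransferase had 1 of 22 higher and 2 lower, translocation and signal recognition 1 of 21 higher and 5 lower, and other ERAD components 2 of 23 higher and 1 lower. Other UPR signalling had the largest share called of the 6 lists, 7 of 22 higher and 3 lower. These lists too were chosen with earlier results of these data known, so their shares are no independent support.

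The genes named from these lists are those with the 3 smallest p-values among the called in each direction of each list, 26 genes, of which 16 kept their call at 1.0 µM with any 1 array left out. CLGN, the calnexin relative best known from testis, rose by 2.12 ± 0.15 (adjusted p = 2.25e-06) at 1.0 µM, with mean signals of 3202 ± 586 at 1.0 µM and 724.2 ± 129 with DMSO (SD, n = 3 each), while CANX was not called. SDF2, the close relative of SDF2L1, changed by -0.68 ± 0.10 (adjusted p = 0.000434). AGR2, a disulfide isomerase relative needed for mucin folding, fell to 3169 ± 235 at 1.0 µM, against 8093 ± 469 with DMSO (SD, n = 3 each), a log2 change of -1.35 ± 0.10 (adjusted p = 2.26e-06). P4HA1, a catalytic subunit of the prolyl hydroxylase that P4HB completes, and PRDX4, the ER peroxiredoxin, changed by -0.94 ± 0.09 (adjusted p = 1.84e-05) and -0.60 ± 0.09 (adjusted p = 0.000299). ERP29, a redox-inactive relative of the disulfide isomerases, changed by 0.71 ± 0.16 (adjusted p = 0.006).

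NGLY1, which strips glycans from ERAD substrates in the cytosol, rose by 0.79 ± 0.09 (adjusted p = 6.72e-05) at 1.0 µM. The stress-response genes TRIB3, CHAC1 and DDIT3, which act downstream of PERK and ATF4, changed by 2.02 ± 0.14 (adjusted p = 1.52e-06), 1.80 ± 0.16 (adjusted p = 1.03e-05) and 1.66 ± 0.14 (adjusted p = 7.49e-06). CREB3L1, a membrane-bound transcription factor of the ATF6 type, WFS1, an ER membrane protein, and BCL2L11, the death-promoting BIM, changed by -1.12 ± 0.16 (adjusted p = 0.000372), -0.85 ± 0.12 (adjusted p = 0.000381) and -1.08 ± 0.09 (adjusted p = 5.83e-06). With its probe sets averaged CREB3L1 gave -0.54 (adjusted p = 0.185) and was no longer called, and BCL2L11 gave -0.67 (adjusted p = 0.000813). The folding genes MESD and FKBP9 and the translocation gene TRAM2 were called lower by smaller amounts, and CNPY3, CRTAP, ERO1B, SSR2 and SEC11A complete the counts of 4 and 5 lower. P4HA2, FICD, DNAJC1, OST4, RPN1, SRP19, SEC62, SPCS3, UBE2J1 and UBE2G2 were also named by the rule, and each lost its call without at least 1 array, 1.0 µM replicate 1 for all but SPCS3, which lost it without DMSO replicate 3 (adjusted p = 0.0516). With probe sets averaged, SPCS3 (-0.14, adjusted p = 0.385), UBE2G2 (-0.22, adjusted p = 0.171) and UBE2J1 (0.28, adjusted p = 0.0581) also lost their calls.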

How the data were processed

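PANC-1 RNA was measured on 9 arrays, 3 per group. The authors deposited 1 linear-scale intensity for each probe set; these are MAS5 signals, per the submitters' processing notes, with the version not given in the sources used here. Groups were taken from sample titles. Values were turned into log2(signal + 16) without further normalization. Probe sets with 1 gene symbol, updated by Entrez identifier to RefSeq GRCh38.p14 (41037 of 41091), were kept where their mean exceeded the 40th percentile, which was a signal of 38.95. The brightest stood for each gene (13948 genes, 7020 with more than 1 such probe set).

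The 9 arrays were fitted in 1 model with limma 3.58.1 (lmFit, eBayes with trend, two-sided) in R 4.3.3, with 6 residual and 5.93 prior degrees of freedom, and once more over all 32768 probe sets above the filter. p-values were adjusted by Benjamini-Hochberg over all features of a comparison. The listed genes, the 6 wider lists and the 4 promoter elements were chosen with earlier results of these data known. All 33 listed genes were described, with full values for those called. The wider lists' named genes are, per list and direction, the 3 called genes with the smallest p at 1.0 µM, plus those that complete a count of 5 or fewer. Replicate numbers were not used as pairs in the main model. Same-numbered arrays correlated at -0.338 to 0.217 in their deviations from the group means. The medians of such correlations were 0.127 for arrays on the same spike side and -0.0715 for the others. Spike side thus enters these values, and they cannot decide whether samples were paired. The 22 alternatives changed the added constant, the filter, the scaling, the choice of probe set, the model and the arrays used.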

Additional observations from a re-analysis of the deposited data

How the results depend on the processing

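No direction of a called gene turned under any of the 22 alternatives. Of the 15 genes called at 1.0 µM against DMSO, 10 were called under every alternative (CALR, PDIA3, PDIA4, DNAJB9, CRELD2, ERN1, EIF2AK3, XBP1, HERPUD1 and SEL1L), and of the 12 called at 0.1 µM, 3 were (CALR, PDIA4 and ERN1). Without the setting that keeps only lower-spike arrays, which leaves 1 array at 0.1 µM, assumed to vary like the other groups, 7 of the 12 were (also HSP90B1, DNAJB9, CRELD2 and HERPUD1). With any 1 array left out, 7 to 9 genes rose and 5 to 7 fell at 1.0 µM, and 4 to 7 rose and 4 to 6 fell at 0.1 µM. With that lone array 2 rose and 2 fell at 0.1 µM, against 6 and 6, which says nothing about stability. The calls between the concentrations were the least stable: 2 genes were higher in the model as described, 1 without the filter, and 0 under median centring, averaging each gene's probe sets, eBayes without trend, and the 6 compared arrays alone, and 0 to 2 with 1 array left out (also 0 on the lower-spike arrays, with 1 array at 0.1 µM); the cause was not tested. The fit with a replicate block gave 0 there, 8 higher and 5 lower at 1.0 µM, and 5 and 5 at 0.1 µM. Over all genes, median centring gave 11 higher and 40 lower between the concentrations, against 54 and 60. Between the concentrations, 1 probe set was called higher with an added constant of 64 and 3 with the filter at the 60th percentile, against 0, and at 0.1 µM 6 were called lower without the filter, against 10. Averaging each gene's probe sets moved ERN1, XBP1 and HSPA5 at both concentrations by over 1.5 times, and HSP90B1 and PDIA4 at 1.0 µM and SEL1L at 0.1 µM, as their probe sets disagree. Dim probe sets limit DERL3 and enter the averages of ERN1, XBP1 and SEL1L, and 3 arrays per group limit every call near the threshold.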
